A study of Rattus with 9 samples.

Results

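A list of genes linked with sensing of or response to blood flow in endothelial cells (EC) was examined in single cells of the rat bile duct. The 8 genes were Klf2 (ENSRNOG00000014205), Klf4 (ENSRNOG00000016299), Nos3 (ENSRNOG00000009348), Thbd (ENSRNOG00000004687), Edn1 (ENSRNOG00000014361), Ednrb (ENSRNOG00000010997), Piezo1 (ENSRNOG00000056786) and Sparcl1 (ENSRNOG00000015093). They were taken by symbol from the features of the count matrices, and all 8 were found. Bile ducts came from Sprague-Dawley rats in 3 groups. The sham group held 3 samples. The ctrl group was liver transplantation (LT) with ischemic injury of the graft, with 1 sample each at days 1, 3 and 7 after LT. The treat group was the same LT with the splenic and gastroduodenal arteries tied to raise arterial flow, with 1 sample each at days 1, 3 and 7. The comparison of treat with ctrl asks what raised arterial flow does to the transplanted duct. No flow was measured in these files, so every value below is a transcript level and not a response to a known shear stress.

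Blood moving over the vessel wall pulls on the endothelium, and this pull, shear stress, is sensed at the cell surface. Piezo1 is a mechanically gated cation channel of that surface. Klf2 and Klf4 are transcription factors induced by steady laminar shear, and among the genes they switch on are Nos3, the endothelial nitric oxide synthase, and Thbd, thrombomodulin, which turns thrombin into an activator of protein C. Edn1 encodes the vasoconstrictor endothelin-1, which laminar shear is known to lower. Ednrb is the endothelin B receptor, which on EC clears endothelin-1 and couples to nitric oxide release. Sparcl1 (hevin) is a secreted matrix protein of quiescent vessel walls. The extrahepatic bile duct is fed by a plexus of arterial branches, so arterial supply is of particular weight in this tissue after LT.

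The 139739 cells kept fell into 44 clusters, of which 3 clusters with 8030 cells carried the markers of EC and are called EC-like. Of the 14 EC markers listed, 13 were detected in the leading EC-like cluster. The 8 genes were left out of the genes that built the clusters. EC-like cells numbered 218 to 1427 in a sample, with 1624162 to 9215504 UMIs (unique molecular identifiers, here counts of transcript 3′ ends). The 20 libraries held 14398295 to 109245177 UMIs each. Between any pair of libraries at most 1.19% of the barcodes of the smaller one recurred. Free RNA could account for at most 4.83% of the UMIs of any of these genes in EC-like cells of any sample. The sample ctrl day 3 had only 218 EC-like cells, and 198 of them came from 1 of its 3 libraries. The sample sham 1 stood apart from the other sham samples for Klf2, as given below, and calls that were lost without either sample are named as such.

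To ask where these genes are expressed at all, their levels were compared among the 6 cell classes with 20 or more cells in each of the 9 samples. The unit is CPM, UMIs scaled to a common total (counts per 1e6) of the class in a sample, and the median over the 9 samples is given. Neighbouring classes in the order of each gene were compared over the 9 samples with a two-sided exact sign-flip permutation test, 40 tests in all, for which the smallest p possible is 0.0039 and the smallest adjusted p 0.0174.

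Nos3 was the most endothelial of the list. Its median was 97.4 CPM in EC-like cells and 2.88 CPM in VSMC-like cells (vascular smooth muscle), the next class. EC-like cells were higher in 9 of 9 samples (mean log2 difference 4.81 ± 1.21, SD, n = 9, exact sign-flip adjusted p = 0.0174). The level was 62.0 to 204.9 CPM over samples in EC-like cells and at most 11.4 CPM in any of the other 5 classes.

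Klf2 and Piezo1 also had their top level in EC-like cells. Klf2 had a median of 49.8 CPM there and 19.7 CPM in VSMC-like cells, higher in 9 of 9 samples (mean log2 difference 1.31 ± 0.66, SD, n = 9, exact sign-flip adjusted p = 0.0174). Piezo1 had a median of 69.8 CPM in EC-like cells against 38.3 CPM in BEC-like cells (biliary epithelial), again higher in 9 of 9 samples (0.79 ± 0.39, SD, n = 9, exact sign-flip adjusted p = 0.0174). Piezo1 was thus measured in every class, down to a median of 16.1 CPM in NK&T-like cells.

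For Thbd the first 2 ranks could not be separated. The median was 172.9 CPM in EC-like and 106.6 CPM in VSMC-like cells, and EC-like cells were higher in 7 of 9 samples (0.80 ± 1.29, SD, n = 9, exact sign-flip adjusted p = 0.226). In BEC-like cells the median was 1.10 CPM. Edn1 was shared by endothelium and epithelium. Its median was 17.1 CPM in EC-like and 20.7 CPM in BEC-like cells (exact sign-flip adjusted p = 0.794, n = 9), and both stood above fibroblast-like cells with 1.63 CPM (BEC-like higher in 9 of 9 samples, exact sign-flip adjusted p = 0.0174).

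Sparcl1 was higher in VSMC-like than in EC-like cells, whereas the first ranks of Ednrb could not be separated. Sparcl1 had a median of 1036 CPM in VSMC-like and 244.2 CPM in EC-like cells, and VSMC-like cells were higher in 9 of 9 samples (1.93 ± 0.61, SD, n = 9, exact sign-flip adjusted p = 0.0174). Ednrb had a median of 153.0 CPM in VSMC-like and 42.3 CPM in EC-like cells, a difference with wide spread (1.23 ± 2.19, SD, n = 9, exact sign-flip adjusted p = 0.25). In sham 1 and sham 2 EC-like cells were the higher class, with 181.0 and 56.6 CPM against 26.2 and 17.3 CPM in VSMC-like cells. Klf4 was broadly expressed. Its medians were 628.9 CPM in fibroblast-like, 507.4 CPM in VSMC-like and 481.2 CPM in EC-like cells, and none of the neighbours down to BEC-like cells (350.6 CPM) passed the test, whereas NK&T-like cells had a lower median of 103.4 CPM (BEC-like higher in 9 of 9 samples, exact sign-flip adjusted p = 0.0174).

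**Figure D1:**
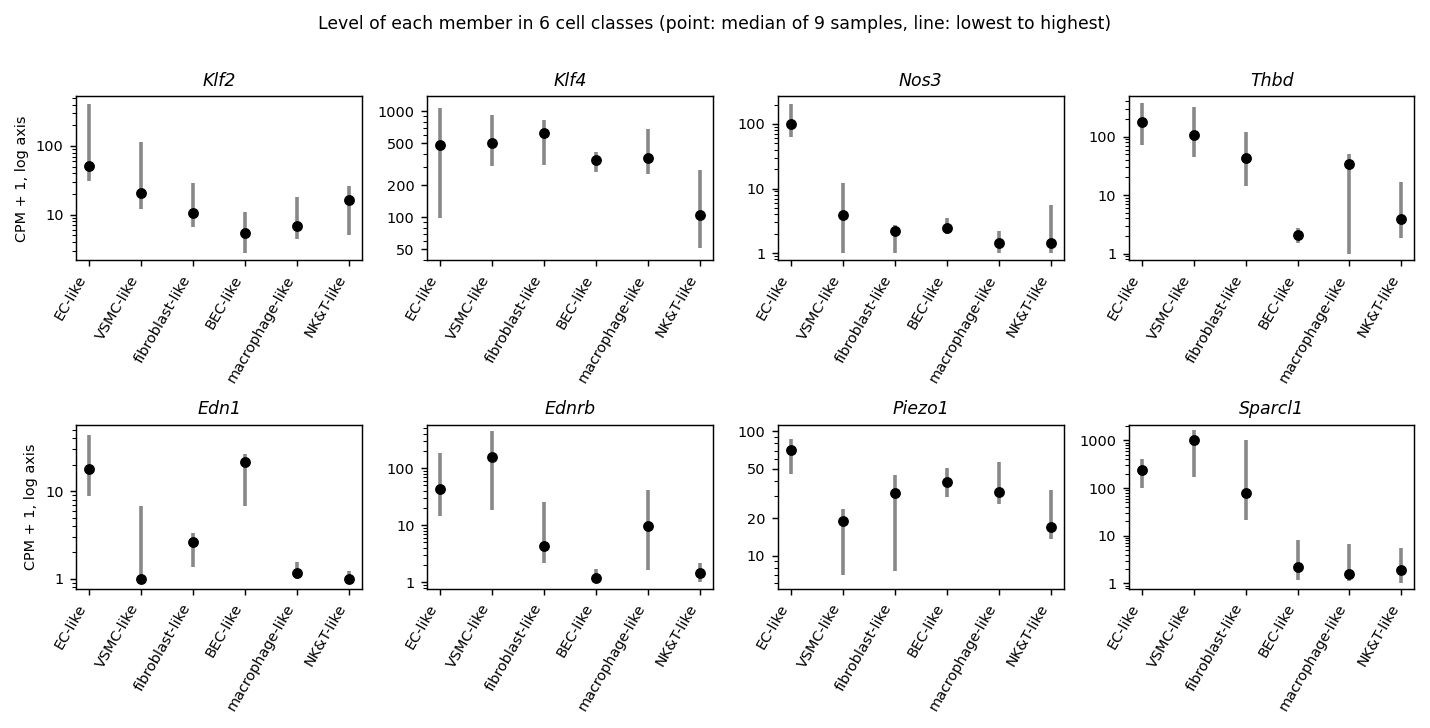
Level of each gene (CPM + 1, log axis) in 6 cell classes, with the median of 9 samples as a point and the lowest to highest sample as a line. Nos3 stands high in EC-like cells only (median 97.4 CPM), Sparcl1 is highest in VSMC-like cells (1036 CPM), and Klf4 is measured in every class.

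The groups were then compared within EC-like cells. Levels from here on are CPM on TMM-scaled totals (a scaling that corrects for differences in RNA makeup), and differences are log2 fold changes ± standard error from edgeR's quasi-likelihood test, adjusted by Benjamini-Hochberg over all genes tested. Ctrl was lower than sham for Thbd, and Klf4 had a fitted difference of similar size that did not pass the threshold. In treat the levels of both genes lay between those of ctrl and sham. Of 10271 genes tested for ctrl against sham, 187 passed (1.82%), and Thbd was the 1 of the 8 genes among them. Nos3 lay in the opposite direction, with all LT samples above all sham samples. Over all genes, 13.7% had ctrl wholly above sham and 9.46% had treat wholly above sham.

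Klf4 was nearly constant in sham, with 945 CPM in sham 1, 952 CPM in sham 2 and 954 CPM in sham 3. In ctrl it was 403 CPM at day 1, 92.1 CPM at day 3 and 363 CPM at day 7. In treat it was 486 CPM at day 1, 529 CPM at day 3 and 506 CPM at day 7. No sample of any group overlapped with another group, in the order ctrl, treat, sham. Over all genes, 7.14% had treat wholly above ctrl and 10.1% had treat wholly below sham. The share of genes with the full order was not counted. The mean was 951 ± 4.54 CPM in sham, 286 ± 169 CPM in ctrl and 507 ± 21.5 CPM in treat (SD, n = 3 each). Ctrl against sham gave a log2 fold change of -1.73 ± 0.43, a 3.32-fold lower level (edgeR adjusted p = 0.0692). Without ctrl day 3 it was -1.30 (edgeR adjusted p = 0.0976). It passed in 6 of 20 other settings, among them DESeq2 (adjusted p = 0.00338), library size in place of TMM (edgeR adjusted p = 0.0391) and no filter on low counts (edgeR adjusted p = 0.0333). The 6 also include the arterial subcluster described below, which is another set of cells, and libraries as samples.

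Klf2, the other factor of the pair, showed no such order. It was 359 CPM in sham 1 but 40.3 CPM in sham 2 and 29.0 CPM in sham 3. In ctrl it was 63.1, 37.7 and 50.1 CPM at days 1, 3 and 7, and in treat 40.1, 67.7 and 55.0 CPM. Apart from sham 1, all 8 samples lay within 29.0 to 67.7 CPM. The log2 fold change of ctrl against sham was -1.49 ± 0.79 (edgeR adjusted p = 0.289), and it turned to 0.55 without sham 1 (edgeR adjusted p = 0.329). The high Klf2 of sham 1 was not confined to EC-like cells. In unscaled CPM it was also the highest of the 9 samples in NK&T-like, VSMC-like, fibroblast-like and macrophage-like cells, with 112.6 CPM in VSMC-like cells against 11.2 to 29.7 CPM in the other samples. In BEC-like cells it was 9.51 CPM and not the highest. On TMM-scaled totals it was not the highest in macrophage-like cells either, with 13.2 CPM in sham 1 against up to 18.2 CPM in ctrl.

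Thbd was 318, 355 and 366 CPM in sham 1, 2 and 3. In ctrl it was 80.4 CPM at day 1, 107 CPM at day 3 and 166 CPM at day 7. In treat it was 231 CPM at day 1, 176 CPM at day 3 and 173 CPM at day 7. The 3 groups did not overlap, again in the order ctrl, treat, sham. The mean was 347 ± 25.2 CPM in sham, 117 ± 43.7 CPM in ctrl and 193 ± 33.0 CPM in treat (SD, n = 3 each). Thbd was 2.94-fold lower in ctrl than in sham (log2 fold change -1.56 ± 0.26, edgeR adjusted p = 0.0279). The direction held when each sample was left out in turn (-1.89 to -1.33), but the call was lost without sham 2, sham 3, ctrl day 1 or ctrl day 3 (edgeR adjusted p = 0.0997, 0.108, 0.0811 and 0.134).

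The makeup of the EC-like cells moved with the groups as well. A subcluster led by acinar genes held 364 and 448 cells of sham 2 and sham 3 and at most 4 cells of any LT sample, and a capillary subcluster held 141 cells of sham 1 and at most 2 of any LT sample. With both taken out, an alternative chosen after seeing the data, Thbd was at -1.53 (edgeR adjusted p = 0.0220) and Klf4 at -1.79 (edgeR adjusted p = 0.0552) for ctrl against sham, whereas Sparcl1 turned from -0.58 to 0.16. Among LT samples, a subcluster led by Cxcl11 and Ubd held 648 and 661 EC-like cells of treat at days 3 and 7 against 28 and 210 of ctrl, 2 of treat day 1, 0 of ctrl day 1 and 2 of sham in all. A subcluster led by Slco2a1, with Nos3 among its top 10 genes, held 725 of 1427 EC-like cells of treat day 1 and 122 of 595 of ctrl day 1, but 39 of 1276 and 133 of 1238 at day 7. A subcluster led by Igfbp3 and Cxcr4 held 175 cells of ctrl day 1 and 32 of treat day 1. Another, led by Ins1 and Ins2, held 182 and 52 cells of ctrl at days 1 and 3, and 99 and 42 of treat. A lymphatic subcluster was 84.2% sham cells. Another lymphatic one, led by Akap12 and Angpt2, held 261 cells of treat day 1 and 47 of ctrl day 1. That led by Mup5, also lymphatic, held 97 cells of treat day 3 and 0 of ctrl day 3. Without the lymphatic subclusters 0 of 10127 genes passed for treat against ctrl. The part of these shifts in the values by group and day was not tested beyond the fits without lymphatic subclusters and within the arterial one. Marker lists of other cells, summed in unscaled CPM over EC-like cells, also differed. The acinar list was 42.5 to 715 CPM in sham and 6.13 to 16.8 CPM in ctrl and 2.74 to 8.36 CPM in treat. The fibroblast list was 164 to 723 CPM in sham, 24.5 to 134 CPM in ctrl and 83.7 to 459 CPM in treat. The neutrophil list was 20.9 to 22.8 CPM in sham, 498 to 680 CPM in ctrl and 84.0 to 386 CPM in treat, and the monocyte list 211 to 496, 567 to 877 and 564 to 1241 CPM. The islet list was 6246 CPM in sham 2, 4.93 and 5.78 CPM in sham 1 and sham 3, and at most 1.98 CPM in any LT sample. The Schwann, goblet and hepatocyte lists were also higher in every sham sample than in any LT sample, at no more than 41.8 CPM. Apart from the removal of the subclusters above, the part of these lists in the results was not tested.

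Nos3 was 71.6, 61.2 and 77.8 CPM in sham. In ctrl it was 163 CPM at day 1, 121 CPM at day 3 and 93.8 CPM at day 7, and in treat 207, 108 and 110 CPM. Every LT sample was above every sham sample. Ctrl was wholly above sham for 13.7% of all genes and treat for 9.46%, and the share with both was not counted. At day 1 the level was the highest in both LT groups. In ctrl this rested on libraries 2 and 3 of day 1 (287 and 177 CPM, scaled over libraries), and library 1 was at 94.4 CPM. The part of the subcluster with Nos3 among its top genes, whose cells were most numerous at treat day 1, was not tested. The log2 fold change against sham was 0.84 ± 0.30 for ctrl (edgeR adjusted p = 0.150) and 1.02 ± 0.30 for treat (edgeR adjusted p = 0.249). Neither passed the threshold.

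Neither gene of the endothelin pair passed. Edn1, the ligand, was 17.5, 8.25 and 12.7 CPM in sham, 19.3, 7.44 and 18.1 CPM in ctrl, and 24.3, 47.8 and 17.1 CPM in treat. Of the samples, only treat day 3 lay clearly above the rest. By library, scaled over libraries, treat day 3 was 38.9 and 55.3 CPM and treat day 1 was 41.2, 14.2 and 14.2 CPM, so these 2 samples overlapped. The log2 fold change of treat against sham was 1.23 ± 0.46 (edgeR adjusted p = 0.347), and ctrl against sham was 0.28 ± 0.48 (edgeR adjusted p = 0.755). Without the lymphatic subclusters the values were 0.61 and -0.15, and in the arterial subcluster described below they were -0.78 and -0.99, so the direction turned with the cells taken.

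Ednrb, the receptor, was 161 CPM in sham 1, 55.8 CPM in sham 2 and 41.7 CPM in sham 3. In ctrl it was 30.2, 12.6 and 39.1 CPM and in treat 50.8, 35.6 and 48.2 CPM at days 1, 3 and 7. All ctrl samples were below all sham samples, and the treat samples overlapped with both groups. The log2 fold change of ctrl against sham was -1.62 ± 0.52 (edgeR adjusted p = 0.124) and was -0.80 without sham 1 (edgeR adjusted p = 0.274).

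Piezo1 and Sparcl1 had overlapping groups. Piezo1 was 58.5 to 84.7 CPM in sham, 48.4 to 74.8 CPM in ctrl and 69.7 to 83.2 CPM in treat, with log2 fold changes of -0.36 ± 0.22 for ctrl and 0.03 ± 0.22 for treat against sham (edgeR adjusted p = 0.366 and 0.973). Sparcl1 was 241 to 354 CPM in sham, 129 to 251 CPM in ctrl and 101 to 282 CPM in treat, with log2 fold changes of -0.58 ± 0.37 and -0.64 ± 0.36 (edgeR adjusted p = 0.367 and 0.517). Both values of Sparcl1 turned to 0.16 and 0.11 without the subclusters of mostly sham cells and were 0.06 and 0.03 in the arterial subcluster. In both LT groups the day 1 sample had the lowest Sparcl1.

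**Figure D2:**
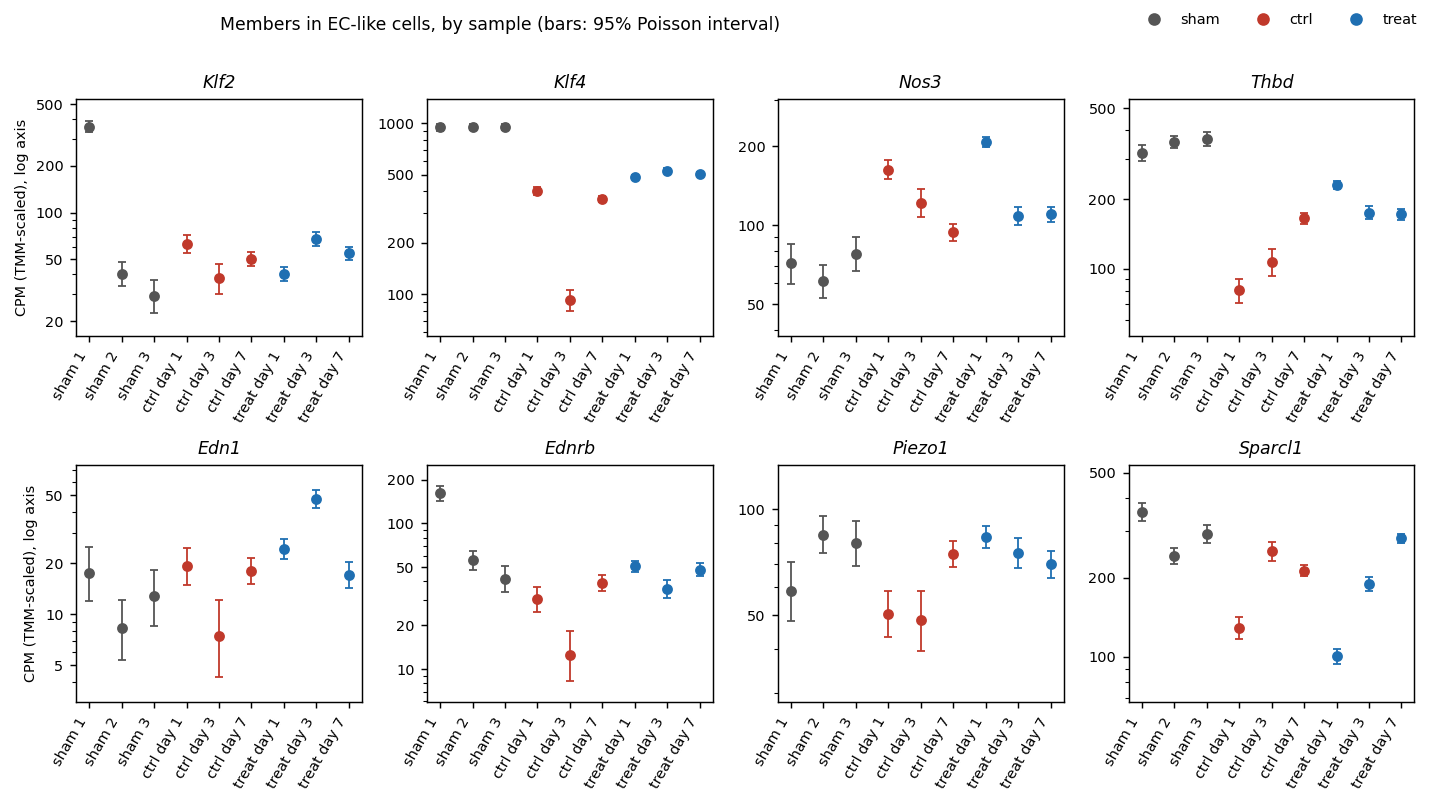
Level of the 8 genes in EC-like cells of each sample (TMM-scaled CPM, log axis). Each point is a sample, coloured by group, and bars are 95% Poisson intervals that cover counting error only. Klf4 and Thbd order as ctrl, treat, sham without overlap, and Klf2 is high in sham 1 alone (359 CPM against 29.0 to 67.7 CPM).

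Counted over the list, ctrl lay wholly below sham for 3 of the 8 genes (Ednrb, Klf4, Thbd), against 14.7% of all genes tested, and wholly above sham for Nos3, against 13.7%. For treat against sham, none of the 8 passed (13 of 10271 genes did, 0.127%). Klf4 and Thbd again lay wholly below sham (a pattern of 10.1% of all genes) and Nos3 wholly above (9.46%). Klf4 and Thbd had log2 fold changes of -0.91 ± 0.42 and -0.84 ± 0.26 (edgeR adjusted p = 0.427 and 0.260). A list of 17 genes that tissue digestion is known to induce, among them Fos, Jun and Egr1, moved in the same direction as Klf4 and Thbd. Its 16 measured members summed to 18943 to 22368 CPM (unscaled) in sham, 5060 to 12097 CPM in ctrl and 10268 to 14402 CPM in treat. All 16 had a negative log2 fold change for ctrl against sham (median -1.17 against -0.02 over all genes, of which 51.3% were negative). Of these 16, 4 passed, where 1.82% of all genes did. Among the 4 were the transcription factors Nr4a1 (-1.92 ± 0.38) and Egr1 (-1.65 ± 0.34) and the RNA decay factor Zfp36 (-1.64 ± 0.26). All 16 had a positive log2 fold change for treat against ctrl (median 0.49 against 0.03, with 52.9% of all genes positive), and 0 passed. The values for treat against ctrl rested on ctrl day 3. Without it 13 of 16 were negative for ctrl against sham (median -0.85, 0 passed), and 5 of 16 were positive for treat against ctrl (median -0.06). Without sham 1 all 16 were negative for ctrl against sham (median -1.07, 2 passed). By day, 6, 16 and 10 of the 16 were higher in treat than in ctrl at days 1, 3 and 7. Its part in the Klf4 and Thbd results was not tested.

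To ask what raised arterial flow changed, treat was compared with ctrl with day as a term. With 1 sample a day and arm, the spread comes from the sham samples and from how the arm effect varies over days. None of the 8 genes passed in EC-like cells, where 1 of 10670 genes did (0.00937%) and 904 had an unadjusted p under 0.05. Klf4 and Thbd were the 2 of the 8 with an unadjusted p under 0.05. Klf4 had a log2 fold change of 1.05 ± 0.39 (edgeR adjusted p = 0.547) and Thbd of 0.76 ± 0.26 (edgeR adjusted p = 0.507). DESeq2 called neither (adjusted p = 0.263 and 0.307). The others were Edn1 0.82 ± 0.48, Ednrb 0.80 ± 0.49, Piezo1 0.41 ± 0.22, Nos3 0.14 ± 0.16, Klf2 0.10 ± 0.85 and Sparcl1 -0.12 ± 0.22. In simulated counts of these samples, this test recovered 0% of 2-fold changes and 83.5% of 4-fold changes. DESeq2 recovered 30% of 2-fold changes, with 23.1% of its calls false. The fitted changes of Klf4 and Thbd are about 2-fold or less. Treat was above ctrl on each of the 3 days for Klf4, Thbd and Ednrb, a pattern shown by 19.5% of all genes, and wholly above ctrl for Klf4 and Thbd, shown by 7.14%.

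Day by day the ratios were as follows. Thbd was 2.88-fold higher in treat than in ctrl at day 1, 1.65-fold at day 3 and 1.04-fold at day 7. Klf4 was 1.21-fold higher at day 1, 5.74-fold at day 3 and 1.39-fold at day 7. For Edn1 the ratio was 1.26 at day 1, 6.42 at day 3 and 0.945 at day 7. Without day 3, the fitted log2 fold change over days was 0.38 in place of 1.05 for Klf4 and 0.13 in place of 0.82 for Edn1, and 0.79 for Thbd. With 1 sample a day and arm these ratios have no test over samples.

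The libraries of a sample allowed a look at each day, with the limit that the labels do not say whether they came from separate rats. Each library with at least 20 EC-like cells was then a sample of its own, an alternative chosen after seeing the data. At day 1, Thbd was 83.6, 88.6 and 58.2 CPM in the ctrl libraries and 180, 257 and 249 CPM in the treat libraries, without overlap. Its log2 fold change was 1.57 ± 0.21 (edgeR adjusted p = 0.0101), and Thbd was the 1 gene called of 10920 (0.00916%). For Klf4 the libraries of ctrl and treat overlapped at day 1, with 305, 498 and 493 CPM in ctrl and 427, 485 and 520 CPM in treat. They also overlapped at day 7, with 339, 284 and 523 CPM in ctrl and 490, 410 and 611 CPM in treat. At day 3, Klf4 was 88.6 CPM in the 1 ctrl library and 500 and 544 CPM in the treat libraries. The fitted log2 fold change was 2.56 ± 0.41 (edgeR adjusted p = 0.0304, 6 genes called, 0.0549%). Its spread comes from the libraries of the other samples, and the lone ctrl library was assumed to vary like them, so this compares libraries and not conditions. At day 7 no gene was called, and Thbd and Klf4 had log2 fold changes of 0.07 ± 0.20 and 0.40 ± 0.24 (edgeR adjusted p = 1 for both). The difference of the Thbd effect between days 1 and 7 was 1.496 ± 0.29 on the log2 scale and did not pass (edgeR adjusted p = 0.164). Nor did any other difference between days for the 8 genes, among them Klf4 between days 1 and 3 (-2.41 ± 0.47, edgeR adjusted p = 0.0845) and Edn1 between days 3 and 7 (2.79 ± 0.88, edgeR adjusted p = 0.466).

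**Figure D3:**
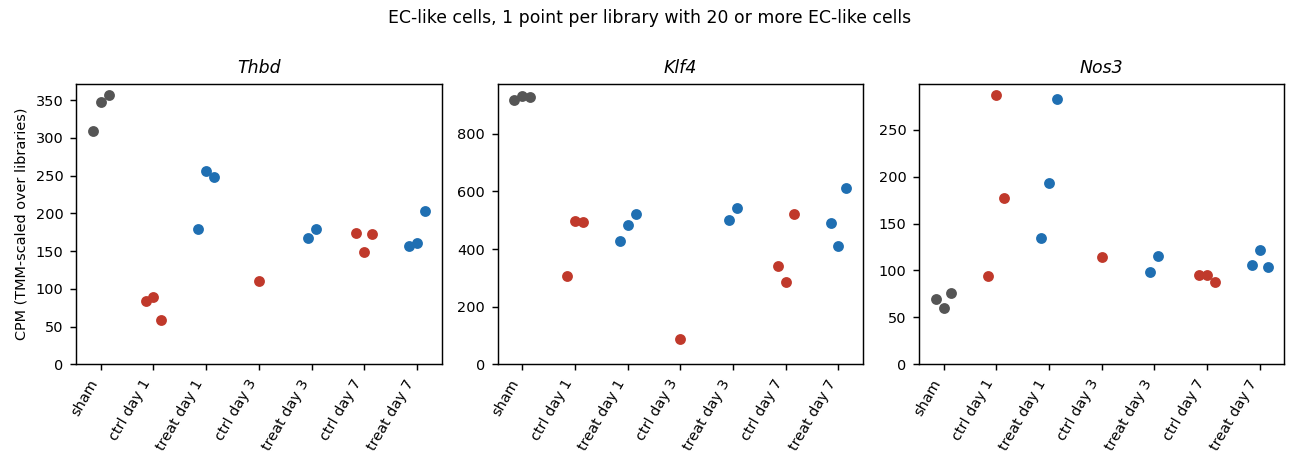
Thbd, Klf4 and Nos3 in EC-like cells of each library (CPM scaled over libraries; 1 point per library with at least 20 EC-like cells, coloured by group as named on the axis). The treat libraries of day 1 sit at 180 to 257 CPM of Thbd and the ctrl libraries at 58.2 to 88.6 CPM, and the single ctrl library of day 3 has the lowest Klf4 (88.6 CPM).

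EC-like cells are a mixture, and their subclusters were not spread evenly over samples, so the groups were also compared within the arterial subcluster, the cells closest in kind to the vessels whose flow the ligation was meant to raise. It was led by Gja5, with Fbln5 among its top 10 genes, had 5 of 7 arterial markers detected and held 937 cells, 29 to 189 in a sample. Among subclusters it was chosen after seeing the data. Here 2 of the 8 genes passed for ctrl against sham, Klf4 and Thbd, where 244 of 4161 genes did (5.86%).

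Arterial Klf4 was 1957, 2178 and 2542 CPM in sham, 610, 83.9 and 416 CPM in ctrl, and 1106, 985 and 862 CPM in treat at days 1, 3 and 7. It was 6.10-fold lower in ctrl than in sham (log2 fold change -2.61 ± 0.49, edgeR adjusted p = 0.0134). Arterial Thbd was 705, 1271 and 1059 CPM in sham, 184, 98.9 and 224 CPM in ctrl, and 376, 353 and 259 CPM in treat. It was 5.91-fold lower in ctrl than in sham (-2.56 ± 0.34, edgeR adjusted p = 0.00353). For both genes the 3 groups did not overlap, in the order ctrl, treat, sham seen in all EC-like cells. Over all genes, 14.4% had ctrl wholly below sham here and 10.6% had treat wholly below sham. The share of genes with the full order was not counted here either. Without ctrl day 3, which held 29 arterial cells, Klf4 was at -2.12 and Thbd at -2.28 (edgeR adjusted p = 0.0047 and 0.0113). Without sham 1 they were at -2.69 and -2.77 (edgeR adjusted p = 0.0155 and 0.00155). The call of Klf4 was lost without sham 2 or sham 3 (edgeR adjusted p = 0.0582 and 0.0587). The digestion-induced genes Egr1 (-2.99 ± 0.50), Zfp36 (-2.66 ± 0.38) and Nr4a1 (-2.44 ± 0.57) were also lower in ctrl here (edgeR adjusted p = 0.0087, 0.00469 and 0.0292), and their part was not tested.

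Arterial Nos3 gave another order. It was 167, 212 and 255 CPM in sham, 172, 168 and 160 CPM in ctrl, and 395, 226 and 211 CPM in treat. Ctrl no longer lay above sham (-0.33 ± 0.30, edgeR adjusted p = 0.534), where all EC-like cells gave 0.84. Whether these values differ was not tested. All treat samples were above all ctrl samples (0.65 ± 0.26, edgeR adjusted p = 0.522). Arterial Ednrb rested on 1 to 27 UMIs a sample, with 12.7, 12.0 and 17.3 CPM in ctrl and 29.3, 31.3 and 34.2 CPM in treat.

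For treat against ctrl in the arterial subcluster, none of the 8 genes passed (1 of 4614 genes did, 0.0217%). Treat lay wholly above ctrl for 4 of the 8, namely Klf4, Thbd, Nos3 and Ednrb, against 9.13% of all genes. Klf4 had the largest fitted difference of the 8 (1.70 ± 0.42, 3.24-fold, edgeR adjusted p = 0.296), and Thbd had 0.98 ± 0.33 (edgeR adjusted p = 0.460). By day, Klf4 was 1.81-fold, 11.7-fold and 2.07-fold higher in treat at days 1, 3 and 7. Without ctrl day 3 the log2 fold changes were 0.98 for Klf4 and 0.59 for Thbd (edgeR adjusted p = 0.539 and 1). For treat against sham, 5 of 4161 genes passed (0.12%), none of them on the list. Thbd had the smallest p of the 8 there (-1.61 ± 0.32, edgeR adjusted p = 0.127), and it passed without ctrl day 3 or sham 1 (edgeR adjusted p = 0.0349 and 0.0322).

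**Figure D4:**
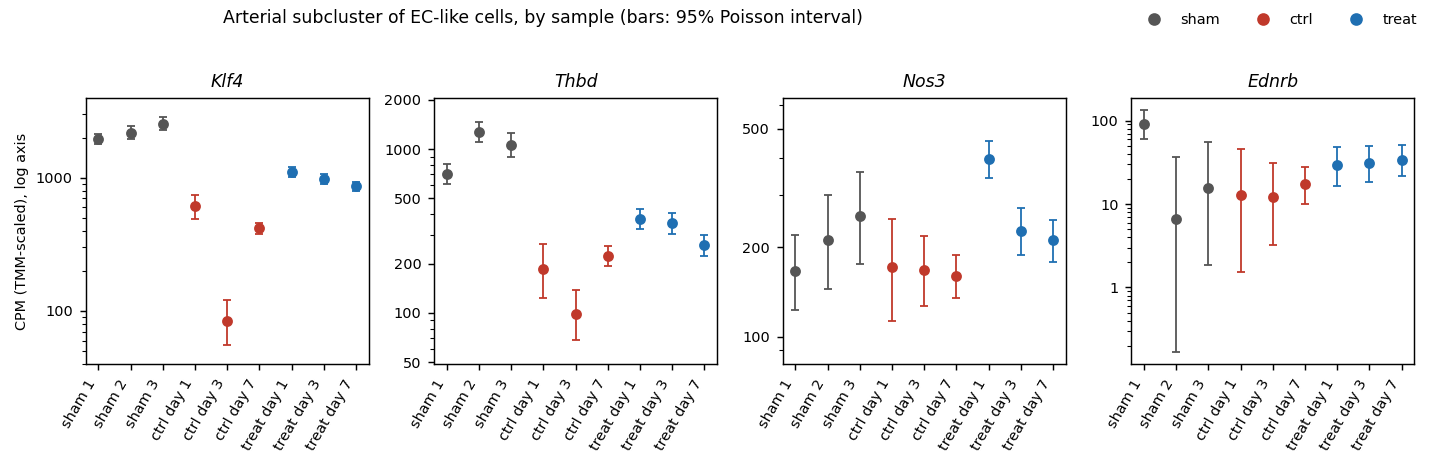
Klf4, Thbd, Nos3 and Ednrb in the arterial subcluster of EC-like cells by sample (TMM-scaled CPM, log axis; bars are 95% Poisson intervals for counting error). Klf4 and Thbd are lowest in ctrl and highest in sham, and all treat samples of Nos3 (211 to 395 CPM) lie above the ctrl samples (160 to 172 CPM).

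**Figure D5:**
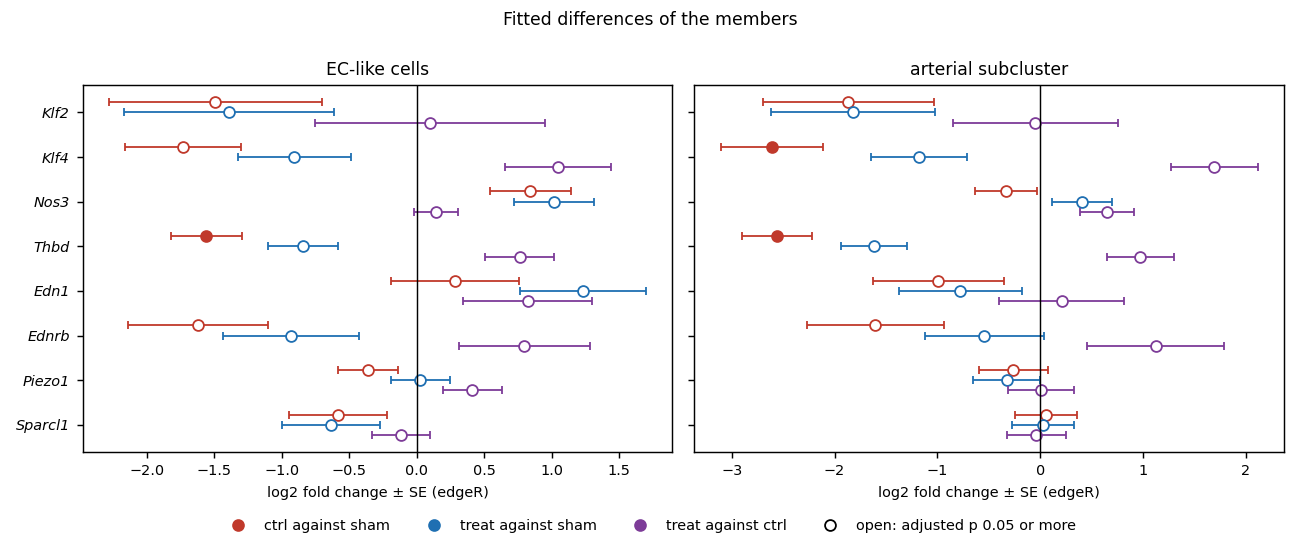
Fitted log2 fold changes ± standard error (edgeR) of the 8 genes in EC-like cells and in the arterial subcluster, for ctrl against sham, treat against sham and treat against ctrl. Filled points passed the adjusted threshold: Thbd in EC-like cells (-1.56), and Klf4 (-2.61) and Thbd (-2.56) in the arterial subcluster, all for ctrl against sham.

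Between days 1 and 7 after LT, over both LT groups, none of the 8 genes passed in EC-like cells, where 388 of 10670 genes did (3.64%). Nos3 and Sparcl1 came nearest. Nos3 was 163 and 207 CPM at day 1 and 93.8 and 110 CPM at day 7 (log2 fold change -0.86 ± 0.20, edgeR adjusted p = 0.0571). By library, scaled over libraries, Nos3 in ctrl overlapped, with 94.4, 287 and 177 CPM at day 1 and 94.7, 95.6 and 88.0 CPM at day 7. In treat it was 135, 193 and 283 CPM at day 1 and 105, 122 and 104 CPM at day 7, without overlap. Sparcl1 was 129 and 101 CPM at day 1 and 213 and 282 CPM at day 7 (1.12 ± 0.27, edgeR adjusted p = 0.0589). By library, Sparcl1 in ctrl also overlapped, with 107, 171 and 124 CPM at day 1 and 316, 123 and 161 CPM at day 7. In treat it was 58.3, 156 and 89.0 CPM at day 1 and 223, 210 and 430 CPM at day 7, without overlap. DESeq2 called both Nos3 and Sparcl1 (adjusted p = 0.0219 and 0.00906), and each gene passed in 5 of 20 other settings, DESeq2 among them. In the arterial subcluster they were at -0.59 and 0.40 (edgeR adjusted p = 0.726 and 0.842).

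Outside EC-like cells, no member tested passed for treat against ctrl. All 8 were tested in BEC-like and fibroblast-like cells, 6 in VSMC-like and macrophage-like cells and 5 in NK&T-like cells. Few genes passed there at all, namely 0 in BEC-like and NK&T-like cells (1709 and 279 at an unadjusted p under 0.05 in edgeR), 0.0112% in VSMC-like, 0.00825% in fibroblast-like and 0.0861% in macrophage-like cells. Klf4 and Thbd also had day-by-day orders in other classes, given here with the share of all genes that had the same order. In VSMC-like cells treat was above ctrl on each day for both (16.5% of all genes). Klf4 was 1.24-fold, 1.48-fold and 1.45-fold higher there at days 1, 3 and 7, and Thbd 1.25-fold, 4.03-fold and 2.17-fold. The same held for Klf4 in fibroblast-like cells (20.8%) and Thbd in BEC-like cells (24.1%), where Thbd was at most 1.89 CPM in any sample. Members with treat above ctrl on each day numbered 3 of 6 in VSMC-like and 3 of 8 in fibroblast-like cells. In BEC-like cells they numbered 2 of the 7 counted. Treat lay wholly below ctrl for Klf4 in BEC-like cells (6.43%), and below it each day for Thbd in macrophage-like cells (16.3%). Among the other members, Ednrb in fibroblast-like cells was below ctrl each day (21.1%), the reverse of EC-like cells (-1.93 ± 0.38, edgeR adjusted p = 0.225). Nos3 in BEC-like cells was wholly above ctrl (6.39%) at no more than 2.50 CPM (1.01 ± 0.26, edgeR adjusted p = 0.283). For ctrl against sham, Sparcl1 was the single member called in each of 3 classes, and in all 3 it was lower in ctrl. In fibroblast-like cells it was 859, 299 and 493 CPM in sham, 68.9, 58.6 and 20.6 CPM in ctrl, and 147, 84.5 and 38.7 CPM in treat, and ctrl lay wholly below sham, as did 14.8% of all genes there. The log2 fold change of ctrl against sham was -3.48 ± 0.65 (edgeR adjusted p = 0.0434; 136 of 11679 genes called, 1.16%). The direction held when each sample was left out (-3.77 to -3.02), but the call was kept only without treat day 1 or treat day 7. In BEC-like cells it was at most 6.83 CPM in any sample, and the log2 fold change was -2.96 ± 0.68 (edgeR adjusted p = 0.0452; 4.23% of genes called), a call kept only without treat day 1 among the 9 samples left out in turn. In macrophage-like cells it rested on 1 to 25 UMIs a sample, with log2 fold changes of -3.86 ± 0.61 for ctrl and -2.26 ± 0.53 for treat against sham (edgeR adjusted p = 0.0131 and 0.0426; 10.4% and 5.27% of genes called). The call for ctrl was lost without sham 2 or sham 3, and that for treat was kept only without sham 1 or treat day 1. At such levels free RNA from cells rich in Sparcl1 can add UMIs, and its part in the BEC-like and macrophage-like values was not tested.

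The Klf4 difference was not found in the epithelium. In BEC-like cells Klf4 was 320 to 365 CPM in sham and 378 to 423 CPM in ctrl, wholly above sham as were 13.1% of all genes there, with a log2 fold change of 0.20 ± 0.15 (edgeR adjusted p = 0.446). The effect of ctrl against sham was lower in EC-like than in BEC-like cells by 2.13 ± 0.43 on the log2 scale (edgeR adjusted p = 0.0455; 174 of 13225 genes differed between these classes, 1.32%). The direction held when each sample was left out (-2.53 to -1.49, the latter without ctrl day 3 with an edgeR adjusted p of 0.0129), but the call was lost without sham 1, sham 2, sham 3, treat day 3 or treat day 7 (edgeR adjusted p = 0.0744, 0.144, 0.175, 0.0696 and 0.0508). Against the other 4 classes the difference for Klf4 did not pass. In VSMC-like cells Klf4 was 684, 913 and 797 CPM in sham and 532, 291 and 310 CPM in ctrl (-1.07 ± 0.29, edgeR adjusted p = 0.0780), and none of 6 members tested passed there (2.33% of genes called). In NK&T-like cells Klf4 and Thbd had log2 fold changes of -1.40 ± 0.36 and -2.35 ± 0.60 (edgeR adjusted p = 0.102 for both; 0.263% of genes called). Thbd rested there on 4 to 10 UMIs in each sham sample, and the part of free RNA in them was not tested.

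Over time after LT, the fibroblast-like and VSMC-like cells held the called members. Fibroblast-like cells numbered 332 in ctrl and 5446 in treat at day 1, and 1059 and 931 at day 7. The part of a change in the kinds of cells within either class was not tested. Between days 1 and 7, 4 of the 8 genes passed in fibroblast-like cells, in which 27.9% of genes were called. Thbd rose by 2.37 ± 0.38, from 16.6 CPM in ctrl and 15.1 CPM in treat at day 1 to 73.7 and 91.3 CPM at day 7 (edgeR adjusted p = 0.00395). This call was kept with each of the 9 samples left out (2.15 to 2.60). Edn1 rose by 2.53 ± 0.58 (edgeR adjusted p = 0.0141), from 0.44 and 0.40 CPM to 1.96 and 2.14 CPM, near the lower end of detection. Ednrb and Sparcl1 fell by 2.68 ± 0.47 and 1.85 ± 0.43 on the log2 scale (edgeR adjusted p = 0.00534 and 0.0159). The calls of Edn1, Ednrb and Sparcl1 were lost without ctrl day 7, that of Edn1 also without treat day 1, and that of Sparcl1 without any of the 4 samples of days 1 and 7. In VSMC-like cells, in which 5.23% of genes were called, Thbd changed the other way. It was 253 CPM in ctrl and 318 CPM in treat at day 1 and 49.0 and 106 CPM at day 7 (log2 fold change -2.03 ± 0.35, edgeR adjusted p = 0.00639). Sparcl1 rose in VSMC-like cells by 1.57 ± 0.29 (edgeR adjusted p = 0.00894). Both calls were lost without ctrl day 1 or ctrl day 7, and that of Sparcl1 also without treat day 7. Thbd was at -1.41 without ctrl day 1 and at -1.99 without ctrl day 7 (edgeR adjusted p = 0.188 and 0.156).

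The wider flow pathway in EC-like cells gave few calls. Of 14 measured flow-induced genes, 0 passed for ctrl against sham, with a median log2 fold change of -0.62 against -0.02 over all genes, and 11 of 14 were negative, as were 51.3% of all genes. Plpp3, a lipid phosphatase of the vessel wall, had the smallest p (-1.47 ± 0.32, edgeR adjusted p = 0.0504). Of 14 flow-repressed genes 0 passed, and Cxcr4, a chemokine receptor, had the smallest p and the opposite sign (2.25 ± 0.53, edgeR adjusted p = 0.0619). Its list as a whole did not share that sign. Without ctrl day 3, 6 of 15 were positive and 9 negative (median -0.25 against -0.02 over all genes). Of 9 other KLF factors 0 passed and all 9 were negative, with Klf9 nearest (-1.34 ± 0.29, edgeR adjusted p = 0.0508). For treat against ctrl 12 of 14 flow-induced genes and 11 of 15 flow-repressed genes were positive, as were 52.9% of all genes, and 0 passed in either list. Without ctrl day 3 these counts were 12 of 16 and 8 of 15. Timp3, an inhibitor of matrix proteases, had 0.94 ± 0.22 (edgeR adjusted p = 0.439), and Vcam1, a leukocyte adhesion molecule, had 1.68 ± 0.29 (edgeR adjusted p = 0.336).

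Among 9 measured genes around nitric oxide and endothelin, 2 passed for ctrl against sham (1.82% of all genes did), and both encode subunits of soluble guanylate cyclase, the receptor of nitric oxide. Gucy1a1 was 14.1 to 30.1 CPM in sham and 0.47 to 2.38 CPM in ctrl (-3.48 ± 0.56, edgeR adjusted p = 0.0253), and Gucy1b1 had -3.57 ± 0.59 (edgeR adjusted p = 0.0273). Both calls were kept without sham 1 and lost without ctrl day 3 (-3.19 and -3.29, edgeR adjusted p = 0.105 and 0.106), ctrl day 1, sham 2 or sham 3. Without the lymphatic subclusters Gucy1a1 was at -1.64 (edgeR adjusted p = 0.142). Gucy1a1 was at the threshold for treat against sham (-3.47 ± 0.53, edgeR adjusted p = 0.0499) and did not pass with any 1 of the 9 samples left out. These subunits are better known from smooth muscle, and the 10 VSMC markers summed to 70.7 to 260 CPM (unscaled) in EC-like cells of sham, 35.7 to 136 CPM in ctrl and 65.0 to 214 CPM in treat. Their part in this result was not tested. Of 5 genes around thrombomodulin, Pros1, the protein S cofactor of activated protein C, passed for ctrl against sham (-0.84 ± 0.17, edgeR adjusted p = 0.0455). This call was lost without ctrl day 3 (-0.78, edgeR adjusted p = 0.158), sham 1 (-0.79, edgeR adjusted p = 0.0736) and 5 of the other samples, and was kept without ctrl day 7 or treat day 1.

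The flow sensors and their signaling gave 0 calls for ctrl against sham and for treat against ctrl, with Piezo2 (-1.47 ± 0.38, edgeR adjusted p = 0.0803) and Map3k2 (-1.04 ± 0.25, edgeR adjusted p = 0.0619) nearest for ctrl against sham. Between days 1 and 7, where 3.64% of all genes passed, 2 of 17 sensors were higher at day 7, namely Cav1, the coat protein of caveolae (1.08 ± 0.21), and Plxnd1, a mechanosensing plexin (1.13 ± 0.23, edgeR adjusted p = 0.0383 and 0.0424). Of the flow-induced genes Timp3 was higher at day 7 (1.43 ± 0.27, edgeR adjusted p = 0.0335). Of the flow-repressed genes Vcam1 was higher (3.00 ± 0.38) and Angpt2, which loosens vessels, and Cxcr4 were lower (-2.16 ± 0.34 and -1.45 ± 0.32, edgeR adjusted p = 0.00987, 0.0205 and 0.0493). Without ctrl day 3 Cxcr4 did not pass (-1.42, edgeR adjusted p = 0.0559) and the other 5 genes named for this comparison did. With any 1 of the 4 samples of days 1 and 7 left out, none of these 6 genes passed. Without the lymphatic subclusters Angpt2 was at -0.92 (edgeR adjusted p = 0.258), and in the arterial subcluster Cxcr4 was at 0.44 (edgeR adjusted p = 0.918).

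The genes most like each of the 8 were read from 98 sums of a class in a sample with at least 20 cells, over 14 classes and 11115 genes, as Pearson's r of log2(CPM + 1). These sums share samples and classes, so r is given as a description. Nos3 was most like Sox17 (r = 0.951), an arterial transcription factor, and Cyyr1 (0.940). Sparcl1 was most like the matrix genes Timp3 (0.932) and Col4a1 (0.928). Klf4 was most like Fosb (0.839), an immediate early gene of the digestion list, and Plk2 (0.714). Edn1 was most like Calml4 (0.888) and Mcf2l (0.882), Ednrb like Adamts4 (0.820) and Fez2 (0.794), and Thbd like Hlx and Itga5 (0.759 for both). Piezo1 was most like LOC686087 (0.782). Klf2 had the lowest r of the 8 with its most similar genes, Heg1 and Ccnt1 (0.624 for both).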

How the data were processed

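Bile ducts of the sham, ctrl and treat groups were measured by droplet 3′ single-cell RNA sequencing. The authors deposited raw UMI counts per gene and barcode, not normalized, with empty barcodes included. The submitters' processing notes name Cell Ranger 5.0.1 and Seurat 3.2.0, and the genome build is not given in the sources used here, so no coordinates are printed. The first library of treat day 3 was not analysed here. A barcode was kept when its gene count lay between 400 and 6000, its mitochondrial share below 25% and its hemoglobin share below 3%, which left 150379 of 161207 barcodes over the gene minimum. These limits, and the doublet percentile below, are those the study gives for its human scRNA-seq data, and none are given for the rat data in the sources used here. The hemoglobin limit removed most barcodes of 2 libraries of ctrl day 3. Cells above the 92.5th percentile of a per-library doublet score were removed. Cells were grouped on 30 principal components of 2000 variable genes by the Leiden method (resolution 0.9; igraph 0.11.9), and clusters were named by marker lists.

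UMI counts were summed per sample and class and tested with edgeR 4.0.16 (quasi-likelihood, TMM, filterByExpr, Benjamini-Hochberg, threshold 0.05). Treat against ctrl and day 7 against day 1 used day and arm, and the comparisons with sham used group, which takes the 3 days as samples of a group. Nothing in the labels ties libraries or samples to separate rats, so p-values measure the spread between these samples. The fits with day and arm have 1 sample a day and arm. Their spread comes from the sham samples and from how the arm effect varies over days, not from replicates within a day and arm. The alternatives were DESeq2 1.42.0, library size scaling, no filter, libraries as samples, doublets put back, resolution 2, free RNA subtracted, no lymphatic subclusters, no term for day, and leaving out each sample or day 3. The arterial subcluster, refits of it, of the class difference and of the other classes without each sample, refits of the lists, the removal of 2 subclusters with over 90% sham cells, and the tests by day were added after seeing the data. On simulated data with 200 changed genes of 10670, edgeR recovered 83.5% of 4-fold changes (7.22% of calls false) and 0% of 2-fold changes, and DESeq2 85.5% (9.04% false) and 30% (23.1% false).

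The 8 genes and all lists were chosen with earlier results of these data known. Named were the 8 genes in every comparison and, from each list, genes past the threshold in EC-like cells (up to 3 higher and 3 lower), otherwise the gene with the smallest p. For each of the 8, the 2 genes with the highest r were named among genes over 10 CPM in some class. For length, not every gene that the rule allows is printed, and 1 of the genes most like Piezo1 is not reported here.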

Additional observations from a re-analysis of the deposited data

Results flagged for a closer look

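The effect of ctrl against sham on Klf4 differed between EC-like and BEC-like cells. The difference between these classes was tested in a joint fit and came to -2.13 ± 0.43 on the log2 scale (edgeR adjusted p = 0.0455), with -1.73 in EC-like and 0.20 in BEC-like cells. All 3 ctrl samples were below all 3 sham samples in EC-like cells (14.7% of all genes) and above them in BEC-like cells (13.1% of all genes). The difference between the classes ranged from -2.53 to -1.49 when each sample was left out. It was -1.49 ± 0.17 without ctrl day 3 (edgeR adjusted p = 0.0129), and the call was lost without sham 1, sham 2, sham 3, treat day 3 or treat day 7. The adjusted p lies near the threshold, and for Klf4 the same test against NK&T-like, macrophage-like, VSMC-like and fibroblast-like cells did not pass (edgeR adjusted p = 0.760, 0.205, 0.340 and 0.169).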

How the results depend on the processing

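For ctrl against sham in EC-like cells the 187 genes called became 747 with DESeq2, 968 with libraries as samples, 283 with no filter, 298 with subclusters of mostly sham cells taken out, 102 with free RNA subtracted and 5 without day 3, and 3 to 226 when each sample was left out. For treat against ctrl the 1 gene became 37 with DESeq2, 26 with libraries as samples, 11 with no filter, and 0 with free RNA subtracted, doublets put back, no term for day, without day 3, without lymphatic subclusters or without subclusters of mostly sham cells, and 0 to 2 when each sample was left out. For treat against sham the 13 genes became 173 with DESeq2, 256 with libraries as samples, 54 with no filter, 49 with subclusters of mostly sham cells taken out, 22 with library size, 5 in the arterial subcluster, 2 with free RNA subtracted and 3 without day 3, and 1 to 27 when each sample was left out. For day 7 against day 1 the 388 genes became 602 with DESeq2, 2119 with libraries as samples, 585 with no filter, 249 with free RNA subtracted and 53 in the arterial subcluster, and 0 to 876 when each sample was left out. Settings with fewer samples leave fewer degrees of freedom. Among them the day 7 against day 1 count rose to 876 without sham 1 and fell to 0 without treat day 1. The causes of these changes were not tested.

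Of 648 recomputed values of the 8 genes in EC-like cells over the 4 comparisons, 579 kept their direction and side of the threshold, 22 newly passed it (6 of them Klf4 and 2 Ednrb for ctrl against sham, and 5 each Nos3 and Sparcl1 for day 7 against day 1), 5 lost it and 42 changed sign. The 5 lost were all Thbd, ctrl against sham. Klf4 and Thbd passed for treat against ctrl only with libraries as samples (1.03 and 0.76, edgeR adjusted p = 0.0296 and 0.0391, over all alternatives up to 1). For treat against sham they also passed only with libraries as samples (-0.89 and -0.83, edgeR adjusted p = 0.0222 and 0.0106, over all alternatives up to 0.610 and 0.521). Ednrb passed for ctrl against sham with DESeq2 (-1.63, adjusted p = 0.0333) and with libraries as samples (-1.80, edgeR adjusted p = 0.00471). Sign changes for treat against ctrl were Klf2 (-0.048 arterial, -0.25 without day 3, -0.26 to 0.48 leaving out samples) and Sparcl1 (0.031 without day 3, 0.043 without lymphatic subclusters, -0.38 to 0.033 leaving out samples). For ctrl against sham they were Klf2 (-1.97 to 0.55 leaving out samples), Edn1 (-0.99 arterial, -0.15 without lymphatic subclusters), Nos3 (-0.33 arterial) and Sparcl1 (0.057 arterial, 0.16 without subclusters of mostly sham cells). For treat against sham they were Klf2 (-1.86 to 0.64 leaving out samples), Edn1 (-0.78 arterial), Sparcl1 (0.031 arterial, 0.11 without subclusters of mostly sham cells) and Piezo1 (-0.33 arterial, -0.14 without subclusters of mostly sham cells, -0.090 with library size, -0.12 to 0.13 leaving out samples). For day 7 against day 1 they were Klf2 (-0.93 arterial, -0.0082 with resolution 2, -0.0052 with doublets put back, -0.51 to 0.61 leaving out samples), Klf4 (0.038 with library size, 0.14 without lymphatic subclusters, -0.61 to 0.62 leaving out samples), Thbd (-0.11 arterial, -0.28 to 0.87 leaving out samples), Edn1 (0.30 without lymphatic subclusters, -1.07 to 0.38 leaving out samples) and, leaving out samples, Ednrb (-0.25 to 0.53) and Piezo1 (-0.25 to 0.53). Leaving out each sample in the arterial subcluster, signs changed for Klf2 (-2.32 to 0.94 for ctrl against sham, -2.26 to 1.02 for treat against sham, -0.090 to 0.10 for treat against ctrl), Ednrb (-2.004 to 0.48 for ctrl against sham, -0.93 to 1.56 for treat against sham), Sparcl1 (-0.19 to 0.25, -0.20 to 0.23 and -0.23 to 0.22 for ctrl against sham, treat against sham and treat against ctrl), and for treat against ctrl Edn1 (-0.66 to 1.08) and Piezo1 (-0.16 to 0.26). In the EC-like minus BEC-like effect of ctrl against sham they changed for Klf2 (-1.07 to 0.063), Thbd (-1.27 to 0.044) and Ednrb (-2.25 to 0.63). With means over cells of log-normalized values, 3 of the 8 genes kept the order of all 6 classes. For treat against ctrl, samples of the same day were paired through the term for day. No paired analysis was possible for the comparisons with sham because no sham sample shares a day with an LT sample.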
